A study of Mus musculus with 8 samples.

Results

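A group of 10 hair follicle genes was described in mouse cheek skin, namely 7 transcription factors (Hoxc13, Foxn1, Lef1, Msx2, Dlx3, Gata3 and Ovol1) and 3 secreted signals (Shh, Wnt10b and Fgf5). They were taken by gene symbol, and all 10 were found among the 18901 genes of the deposited table and tested among the 17124 that reached 10 counts in the sum of 8 mice. The RNA came from cheeks of 4 TBX20fl/fl;K14-Cre mice, in which the keratin 14 promoter drives Cre recombinase in keratinocytes to remove exons 2 to 3 of Tbx20, and of 4 TBX20fl/fl littermates without Cre. Whole skin also holds cells in which this Cre is not active. All 8 were female, 7 weeks old and on a C57BL/6 background, their cheek fur was shaved 1 day before, and all received 10 µg of B-type natriuretic peptide (BNP) in 10 µL into the skin of the left cheek. Skin was taken 5 h after a 30 min recording of behaviour, and no cheek without BNP was analysed here. Cre was carried by every TBX20fl/fl;K14-Cre mouse and by no control mouse, so Cre and the deletion cannot be told apart. Each mouse is called here by its genotype with the number its label carries.

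The hair follicle grows in cycles. In the growth phase, called anagen, matrix cells around the dermal papilla divide and differentiate into the hair shaft and the inner root sheath, a process that uses WNT, hedgehog, BMP and FGF signals and a set of transcription factors that switch on hair keratin genes. In the resting phase the matrix and the inner root sheath are gone. The hair cycle stage of the cheek skin was not given in the sources used here.

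Each mouse had between 16056282 and 19880654 counts, so that 3 counts correspond to 0.151 to 0.187 counts scaled to the library total (CPM). Counts of Tbx20 were 0 to 2 with K14-Cre and 0 to 3 without it, and its deletion was not detectable at this depth. TBX20fl/fl replicate 2 stood apart, with a median Spearman correlation to the other mice of 0.919 against 0.974 to 0.990 for the others and a TMM scaling factor of 0.735 against 1.01 to 1.07. It had the lowest FPKM (read number scaled by transcript length and library total) of the 8 mice in 53.1% of all genes tested and in 7 of the 10 follicle genes, Foxn1, Lef1, Shh, Wnt10b, Dlx3, Gata3 and Ovol1. TBX20fl/fl;K14-Cre replicate 2 stood apart in the follicle genes themselves. It had the highest FPKM of the 8 mice in 20.5% of all genes tested and in 10 of the 10 follicle genes.

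On GRCm38, Hoxc13 is at chr15:102921131-102928814 on the plus strand and Wnt10b at chr15:98770712-98778206 on the minus strand. Foxn1 is at chr11:78357577-78386783 on the minus strand and Dlx3 at chr11:95120117-95125296 on the plus strand. Shh is at chr5:28456840-28467101 on the minus strand and Fgf5 at chr5:98254184-98277033 on the plus strand. Lef1 is at chr3:131109026-131224357 on the plus strand, Msx2 at chr13:53466881-53472780 on the minus strand and Ovol1 at chr19:5549137-5560575 on the minus strand. Gata3 is at chr2:9857078-9887953, where GENCODE M21 puts it on the minus strand and the deposited table on the plus strand. Exons of Lef1, Shh, Gata3 and Ovol1 overlap those of 1 or 2 other annotated genes, most of them antisense, and whether the reads kept their strand was not given in the sources used here, so reads of such overlaps cannot be told apart.

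Promoter windows of RefSeq (GRCm38.p6, 250 bases before to 50 after a start site) were matched for 6 of the 10 genes, Gata3, Lef1, Fgf5, Foxn1, Msx2 and Wnt10b, in 9 windows of which Lef1 had 4. Hoxc13, Shh, Dlx3 and Ovol1 had no entry in the set of windows used. Searched on both strands were 4 motifs, the core of T-box factors such as TBX20 (AGGTGT), the LEF/TCF core (CTTTGA), the GATA core (AGATAA) and a homeodomain core (TAATTG). The T-box core stood in 3 of the 9 windows, 2 of Lef1 and 1 of Fgf5, and in 13.7% of all 32851 windows. The LEF/TCF core stood in 1 window, of Lef1, against 16% of all windows, the GATA core in 1 window, of Lef1, against 11.2%, and the homeodomain core in 0, against 8%. The windows with the T-box core are shown because the deleted gene encodes a T-box factor, with the motifs in capitals and each read 5′ to 3′ along the gene, so that a motif on the opposite strand appears as its reverse complement.
Lef1, chr3:131112541-131112840, plus strand: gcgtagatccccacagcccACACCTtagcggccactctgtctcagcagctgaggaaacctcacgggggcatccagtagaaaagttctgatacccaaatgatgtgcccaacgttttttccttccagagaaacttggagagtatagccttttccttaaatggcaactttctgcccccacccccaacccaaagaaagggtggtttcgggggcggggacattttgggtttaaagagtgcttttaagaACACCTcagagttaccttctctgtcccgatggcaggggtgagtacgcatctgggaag
Lef1, chr3:131156044-131156343, plus strand: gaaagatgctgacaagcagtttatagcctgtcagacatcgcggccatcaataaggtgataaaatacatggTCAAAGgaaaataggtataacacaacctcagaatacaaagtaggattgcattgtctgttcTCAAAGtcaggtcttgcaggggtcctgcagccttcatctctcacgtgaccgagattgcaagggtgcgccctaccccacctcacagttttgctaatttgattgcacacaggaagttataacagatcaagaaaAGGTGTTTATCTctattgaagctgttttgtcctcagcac
Fgf5, chr5:98253934-98254233, plus strand: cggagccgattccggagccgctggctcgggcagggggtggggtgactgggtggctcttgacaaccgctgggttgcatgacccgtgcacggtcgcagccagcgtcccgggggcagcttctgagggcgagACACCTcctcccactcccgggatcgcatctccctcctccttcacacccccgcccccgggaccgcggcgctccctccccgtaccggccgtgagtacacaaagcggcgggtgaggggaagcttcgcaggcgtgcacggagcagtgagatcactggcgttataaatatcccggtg
Counted from the start site, the T-box core began at -231 and -7 in the first Lef1 window, at 11 in the second and at -122 in the Fgf5 window. In the second Lef1 window the T-box core is followed directly, at 17, by the GATA core, without overlap, and 2 LEF/TCF cores lie upstream, at -180 and -120. These are matches of letters and were not tested for binding.

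Whether the follicle genes differed between the genotypes was asked first over all genes. No gene passed an adjusted p of 0.05 in the quasi-likelihood test of edgeR after Benjamini-Hochberg adjustment (0% of 17124, smallest adjusted p = 0.498), and none of the 10 did. At an unadjusted p under 0.05, there were 1431 genes, 419 of them higher in TBX20fl/fl;K14-Cre mice, and DESeq2 called 10 genes at its adjusted threshold. All 10 follicle genes had a higher fitted level in TBX20fl/fl;K14-Cre mice, with log2 fold changes of 0.28 to 3.92 and a median of 1.85, against a median of 0.026 over all genes tested. Of the 10, 8 had an unadjusted p under 0.05 in this direction, against 2.45% of all genes, the exceptions being Ovol1 and Fgf5. Without TBX20fl/fl;K14-Cre replicate 2 the median was 0.40 and 2 of the 10 (Lef1 and Dlx3) had such a p, against 1.41% of all genes. With the replicate number as a block 2 of the 10 (Lef1 and Gata3) had one, against 3.52%. The median log2 fold change of the 10 with the block was 1.04, from 0.26 for Ovol1 to 2.54 for Shh. In whole skin, fewer cells of a type and less RNA per cell cannot be told apart.

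**Figure D1:**
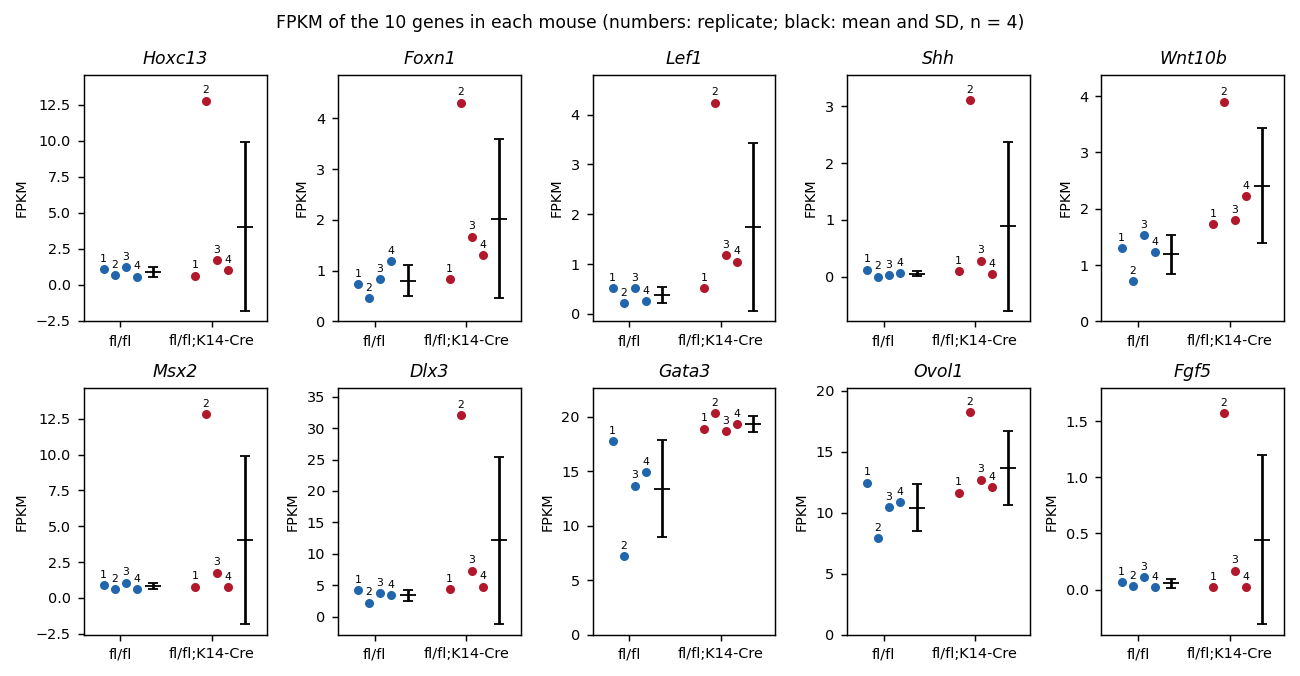
FPKM (vertical axes, linear, one scale per gene) of the 10 follicle genes in each of the 8 mice, by genotype, with fl/fl for TBX20fl/fl and fl/fl;K14-Cre for TBX20fl/fl;K14-Cre. Points are mice, numbered by replicate, and black bars give the mean and SD of 4 mice. TBX20fl/fl;K14-Cre replicate 2 is the highest point in every panel, while in Gata3 it lies close to the other 3 mice of its genotype and TBX20fl/fl replicate 2 lies lowest.

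The 3 signals ranged from hardly detected to moderate. Shh, the hedgehog ligand that matrix cells send to their neighbours, had an FPKM of 0.10, 3.11, 0.28 and 0.04 in TBX20fl/fl;K14-Cre replicates 1 to 4 and of 0.12, 0, 0.03 and 0.06 in TBX20fl/fl replicates 1 to 4. Its rounded counts were 4, 161, 14 and 2 in the first group and 6, 0, 1 and 3 in the second. Thus 4 of the 8 mice were at or under 3 counts, the groups overlapped, and replicate 2 of TBX20fl/fl;K14-Cre was 11.1 times the next highest mouse. The log2 fold change was 3.92 ± 1.43 (SE, edgeR, adjusted p = 0.498) with all mice and 1.19 ± 0.888 without that mouse (adjusted p = 0.569). The exact permutation test of the mean FPKM (0.883 ± 1.49 against 0.0525 ± 0.0512, SD, n = 4 each) gave p = 0.171, two-sided and, as for the other 9 genes, not adjusted, where the smallest p of 4 against 4 mice is 0.0286.

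Fgf5, a secreted signal that ends the growth phase and whose loss gives long hair, had an FPKM of 0.02, 1.57, 0.17 and 0.02 in TBX20fl/fl;K14-Cre mice and of 0.07, 0.03, 0.11 and 0.02 in TBX20fl/fl mice. Its counts were 1, 76, 8 and 1 against 3, 1, 5 and 1, so 5 of the 8 mice were at or under 3 counts. As in Shh, a single mouse carried most of the reads, and its FPKM was 9.24 times the next highest. The log2 fold change was 2.82 ± 1.31 with all mice (edgeR, adjusted p = 0.498) and 0.19 ± 0.871 without it (adjusted p = 0.911), and the exact permutation p was 0.457.

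Wnt10b, a WNT ligand of the follicle placode and of early anagen, differed from these in that the mice of the 2 genotypes did not overlap in FPKM. Its FPKM was 1.73, 3.90, 1.80 and 2.22 in TBX20fl/fl;K14-Cre mice and 1.30, 0.71, 1.53 and 1.23 in TBX20fl/fl mice. Means were 2.41 ± 1.02 and 1.19 ± 0.346 (SD, n = 4 each, exact permutation p = 0.0286), and without TBX20fl/fl;K14-Cre replicate 2 the first mean was 1.92 ± 0.265 (n = 3, exact permutation p = 0.0571). On the log2 CPM scale, which carries no transcript length, the groups overlapped, with TBX20fl/fl;K14-Cre replicate 1 at 2.18 and TBX20fl/fl replicate 3 at 2.20. The same test gave an exact p of 0.0571 there with all mice, and on FPKM with any of the controls left out it gave 0.0857. The edgeR log2 fold change was 0.75 ± 0.295 (adjusted p = 0.498), and 0.41 ± 0.211 without that mouse.

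Hoxc13, Msx2, Foxn1, Lef1 and Dlx3 act in the matrix and the differentiating shaft. Hoxc13, a homeobox factor that activates hair keratin genes, had an FPKM of 0.63, 12.80, 1.73 and 0.99 in TBX20fl/fl;K14-Cre mice and of 1.11, 0.65, 1.24 and 0.57 in TBX20fl/fl mice. Msx2, a homeobox factor of the matrix that is needed to keep the shaft in place, had 0.79, 12.85, 1.76 and 0.77 against 0.86, 0.63, 1.06 and 0.62. In both genes one mouse was over 7 times the next (7.40 and 7.30), replicate 3 of TBX20fl/fl;K14-Cre came next, and the other 2 mice of that genotype lay within the range of the controls. The log2 fold changes of 2.02 ± 0.889 and 2.18 ± 0.892 (edgeR, adjusted p = 0.498 for both) went to 0.17 ± 0.397 and 0.31 ± 0.366 without that mouse. Exact permutation tests of FPKM gave p = 0.314 for Hoxc13 and 0.229 for Msx2.

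Foxn1, the forkhead factor that is mutated in nude mice and directs shaft differentiation, had an FPKM of 0.83, 4.31, 1.67 and 1.30 in TBX20fl/fl;K14-Cre mice and of 0.73, 0.46, 0.83 and 1.19 in TBX20fl/fl mice. Lef1, the HMG-box factor that joins β-catenin to carry WNT signals in the matrix, had 0.51, 4.24, 1.18 and 1.05 against 0.52, 0.22, 0.51 and 0.25. In both genes 3 of the 4 TBX20fl/fl;K14-Cre mice exceeded every control in FPKM and replicate 1 fell among the controls, so the groups overlapped. Foxn1 was nevertheless higher in 4 of 4 pairs of the same replicate number and Lef1 in 3 (exact permutation p = 0.0857 for each). On log2 CPM the exact permutation p was 0.0857 for Foxn1 and 0.0286 for Lef1, where Lef1 did not overlap, by 0.690 against 0.621. Without TBX20fl/fl;K14-Cre replicate 2 the exact p was 0.171 for Foxn1 and 0.0857 for Lef1. Foxn1 had a log2 fold change of 1.20 ± 0.477, and 0.53 ± 0.309 without TBX20fl/fl;K14-Cre replicate 2. Without that mouse Lef1 had the largest fold change of the 10 genes, 1.20 ± 0.364 (edgeR, unadjusted p = 0.0102, adjusted p = 0.569), against 2.24 ± 0.652 with it (unadjusted p = 0.00714, adjusted p = 0.498). DESeq2 gave Lef1 an adjusted p of 0.0999.

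Dlx3, a homeobox factor of the matrix, the inner root sheath and the shaft that is also active in the upper epidermis, had an FPKM of 4.36, 32.05, 7.30 and 4.75 in TBX20fl/fl;K14-Cre mice and of 4.16, 2.21, 3.79 and 3.39 in TBX20fl/fl mice. The lowest mouse of the first group lay just above the highest of the second. The exact permutation p was 0.0286 with all mice and also 0.0286 for 3 against 4 mice, the smallest p of that design too, but 0.257 to 0.371 with any of the controls left out. The log2 fold change was 1.69 ± 0.612 (edgeR, adjusted p = 0.498), and 0.55 ± 0.218 without TBX20fl/fl;K14-Cre replicate 2 (unadjusted p = 0.0344, adjusted p = 0.569).

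Gata3 and Ovol1, which are also active in the epidermis between follicles, were the most abundant of the 10. Gata3, a zinc-finger factor that specifies the inner root sheath and is also made by T cells and innate lymphoid cells, had an FPKM of 18.91, 20.32, 18.66 and 19.30 in TBX20fl/fl;K14-Cre mice and of 17.77, 7.22, 13.68 and 14.89 in TBX20fl/fl mice. Here the 4 TBX20fl/fl;K14-Cre mice lay within 2 FPKM of each other, and the low mouse was TBX20fl/fl replicate 2. Means were 19.3 ± 0.731 and 13.4 ± 4.46 (SD, n = 4 each, exact permutation p = 0.0286, and 0.0571 with any TBX20fl/fl;K14-Cre mouse left out). The log2 fold change was 0.41 ± 0.175 (edgeR, adjusted p = 0.498), 0.38 without TBX20fl/fl;K14-Cre replicate 2 and 0.28 without TBX20fl/fl replicate 2. The 14 genes of T cells and innate lymphoid cells had a mean log2 CPM of 2.87 to 3.22 with K14-Cre and of 3.08 to 3.52 without. Of the 14 none had an unadjusted p under 0.05 for a higher level and 3 had one for a lower level, among them Il7r (-0.69) and Cd2 (-0.91). Over all 17124 genes tested, 419 had such a p for a higher level and 1012 for a lower level.

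Ovol1, a zinc-finger factor of differentiating epidermal and follicle cells, had the smallest fold change. Its FPKM was 11.65, 18.21, 12.70 and 12.07 in TBX20fl/fl;K14-Cre mice and 12.46, 7.90, 10.46 and 10.86 in TBX20fl/fl mice. The groups overlapped through TBX20fl/fl replicate 1, with an exact permutation p of 0.0857 and a log2 fold change of 0.28 ± 0.164 (edgeR, adjusted p = 0.499), against an exact p of 0.2 and a log2 fold change of 0.13 ± 0.139 without TBX20fl/fl;K14-Cre replicate 2.

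FPKM did not overlap between the genotypes, with TBX20fl/fl;K14-Cre higher, in 3 of the 10 genes (Wnt10b, Dlx3 and Gata3), against 5.19% of all genes tested. Without TBX20fl/fl;K14-Cre replicate 2 the same 3 genes did not overlap, against 9.81% of all genes. After each mouse's log2 CPM was corrected for its trend with transcript length, 3 genes did not overlap, Lef1, Dlx3 and Gata3, against 2.81% of all genes. Before that correction log2 CPM of Lef1 already did not overlap (lowest 0.690 with K14-Cre, highest 0.621 without), while that of Wnt10b did. Levels in TBX20fl/fl;K14-Cre replicate 2 were over 2 times those of the highest other mouse in 7 of the 10 genes (Hoxc13, Foxn1, Lef1, Shh, Msx2, Dlx3 and Fgf5), against 2.35% of all genes. The ratio to the median of the other 7 mice ran from 1.14 in Gata3 and 1.56 in Ovol1 over 2.55 in Wnt10b and 5.19 in Foxn1 to 51.8 in Shh and 52.3 in Fgf5.

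**Figure D2:**
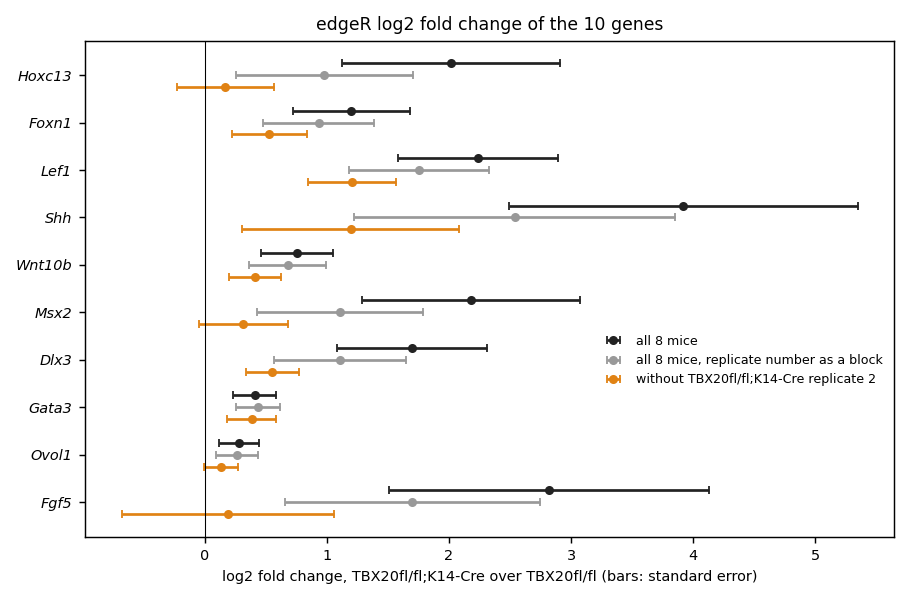
Log2 fold change of the 10 follicle genes, TBX20fl/fl;K14-Cre over TBX20fl/fl (horizontal axis, edgeR), with all 8 mice (black), with the replicate number as a block (grey) and without TBX20fl/fl;K14-Cre replicate 2 (orange). Bars are standard errors. All 30 points lie above 0, and for Hoxc13, Msx2 and Fgf5 the point without that mouse lies between 0.17 and 0.31.

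By mean FPKM, the order in TBX20fl/fl mice was Gata3 (13.4), Ovol1 (10.4), Dlx3 (3.39), Wnt10b (1.19), Hoxc13 (0.893), Foxn1 (0.803), Msx2 (0.793), Lef1 (0.375), Fgf5 (0.0575) and Shh (0.0525). Neighbours whose ranges over the 4 mice did not overlap were Ovol1 and Dlx3, Dlx3 and Wnt10b, Msx2 and Lef1, and Lef1 and Fgf5, while the ranges overlapped between Gata3 and Ovol1, between neighbours from Wnt10b to Msx2, and between Fgf5 and Shh. Within each mouse, however, Wnt10b was above Hoxc13 in 4 of 4. In TBX20fl/fl;K14-Cre mice Gata3 (19.3), Ovol1 (13.7) and Dlx3 (12.1) again led, and Gata3 and Ovol1 were the one pair of neighbours whose ranges did not overlap.

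The pathways these genes belong to were described by lists. Beside their counts, the share of all genes higher with an unadjusted p under 0.05 was 2.45% with all mice. It was 1.41% without TBX20fl/fl;K14-Cre replicate 2, 3.19% without TBX20fl/fl replicate 2, 3.43% with the length trend removed and 3.52% with the replicate block. Of 14 hedgehog pathway genes, 14 had a higher fitted level in TBX20fl/fl;K14-Cre mice (13 without TBX20fl/fl replicate 2 and 13 with the length trend removed), 5 with an unadjusted p under 0.05, and the median log2 fold change was 0.57. Without TBX20fl/fl;K14-Cre replicate 2 the median was 0.47 and 0 genes had such a p. Without TBX20fl/fl replicate 2 it was 0.35, with 3 genes, with the length trend removed 0.32, with 3, and with the replicate block 0.63, with 1. Gli1, the transcriptional target by which hedgehog activity is commonly read, had an FPKM of 1.99, 9.04, 2.18 and 2.41 against 2.02, 0.33, 0.91 and 1.59, a log2 fold change of 1.59 (adjusted p = 0.498) and of 0.76 without that mouse. Ptch1, the receptor and also a target, had 5.49, 12.01, 6.27 and 6.24 against 4.89, 0.85, 3.30 and 4.91, groups that did not overlap, with a log2 fold change of 1.02 and of 0.70 without it. TBX20fl/fl replicate 2 was lowest in Gli1 and Ptch1.

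Of 36 WNT pathway genes, 32 were higher, 4 with an unadjusted p under 0.05, with a median of 0.43. Without TBX20fl/fl;K14-Cre replicate 2 the median was 0.25 with 1 such gene, and without TBX20fl/fl replicate 2 it was 0.26 with 5. Among the 4 were the ligand Wnt11 (0.63, and 0.35 without the first of these mice) and the secreted Dkk3 (0.44 and 0.40). Axin2, a direct target and feedback inhibitor of WNT signals, had an FPKM of 8.08, 5.99, 8.14 and 8.21 against 8.09, 1.48, 5.31 and 6.19, and the mouse with the most Lef1 and Wnt10b thus had the lowest Axin2 of its genotype. Of 17 BMP pathway genes 13 were higher with a median of 0.13, and the one with an unadjusted p under 0.05 was Id2, an inhibitor of basic helix-loop-helix factors, which was lower (-0.94). Of 17 FGF pathway genes tested 14 were higher with a median of 0.32, which was 0.20 without TBX20fl/fl replicate 2, and none had an unadjusted p under 0.05.

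Of 28 other follicle transcription factors tested, 27 were higher, 3 with an unadjusted p under 0.05, with a median of 0.37. The median was 0.21 without TBX20fl/fl;K14-Cre replicate 2, with 0 such genes, and also 0.21 without TBX20fl/fl replicate 2, with 2. Dlx2, a relative of Dlx3, had a log2 fold change of 2.49 that went to 0.51 without TBX20fl/fl;K14-Cre replicate 2, and Sox21, a factor of the shaft cuticle, had 0.78 and 0.56. Lhx2 and Sox9, factors of follicle stem cells, had 0.92 and 0.53 with all mice and 0.25 and 0.36 without that mouse, and Hr, the hairless corepressor, had 0.39 and 0.41. Their adjusted p-values ran from 0.498 to 0.521.

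Of the genes made by the differentiated layers, 10 of 10 of the inner root sheath and 16 of 18 of the hair shaft were highest in the same mouse. The 10 inner root sheath genes had a mean log2 CPM of 7.49 in TBX20fl/fl;K14-Cre replicate 2, of 1.88 to 4.56 in the other 3 mice of that genotype and of 0.42 to 3.45 in TBX20fl/fl mice. All 10 were higher in TBX20fl/fl;K14-Cre, 8 with an unadjusted p under 0.05, with a median log2 fold change of 3.15, which was 0.77 with none under 0.05 without that mouse and 2.02 with 10 under 0.05 with the replicate block. Krt71, an inner root sheath keratin, had an FPKM of 10.02, 530.35, 76.90 and 16.67 against 3.75, 20.55, 27.92 and 7.22, and Krt28 and Krt73 had log2 fold changes of 2.69 and 3.87, which were 0.75 and 1.24 without that mouse. Of 18 hair shaft genes, 16 were higher, 3 with an unadjusted p under 0.05, with a median of 1.29. Without that mouse 5 were higher, 0 with such a p, with a median of -0.34, and with the replicate block 16 were higher, 9 with such a p, with a median of 1.10. The shaft keratin Krt35 had an FPKM of 0.85, 86.67, 9.79 and 2.30 against 0.46, 3.83, 7.41 and 1.01. The peptidylarginine deiminase Padi3 (3.19, and 1.03 without that mouse) and the desmosomal cadherin Dsg4 (2.94 and 1.05) were the shaft genes with the smallest p for a higher level. Lgals3 of the same list was lower (-0.67). Its FPKM was 371.46 to 693.04 over all mice and, unlike that of Krt35, lowest in TBX20fl/fl;K14-Cre replicate 2.

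All 15 proliferation genes were highest in TBX20fl/fl;K14-Cre replicate 2, where their mean log2 CPM reached 5.04, while the other 7 mice lay between 3.05 and 4.07, and Mki67 and Cenpf had log2 fold changes of 0.96 and 1.03, which were 0.55 and 0.59 without that mouse. The list's median was 0.71 with all 15 higher, and 0.19 with 10 higher without that mouse. Of 12 dermal papilla genes 8 were higher (median 0.27, 0.14 without that mouse, and 0.09 with 7 higher when the length trend was removed), among them Alx4 (1.71 and 0.89) and the hedgehog-binding Hhip (1.49 and 0.56), neither with an unadjusted p under 0.05 without it, while Crabp1 was lower (-0.85 and -0.88). Of 10 genes of the outer root sheath, companion layer and bulge, 5 were higher (median -0.02), with the companion layer keratin Krt75 at 1.56, which was 0.27 without that mouse, and Krt24 and Krt6a at -0.57 and -1.27. Krt6a shares much sequence with Krt6b, so that reads may be split between them, and TBX20fl/fl replicate 4 had an FPKM of 327.28 of it, while the other 3 controls (52.66 to 63.91) lay within the range of the TBX20fl/fl;K14-Cre mice (36.74 to 70.64).

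Of 12 epidermal keratinocyte genes 6 were higher (median -0.04, and 0.09 without TBX20fl/fl;K14-Cre replicate 2), with the barrier protein gene Flg at 0.88 and Krtdap at -0.89. These were 0.39 and -0.09 with the length trend removed, and TBX20fl/fl replicate 2 was the extreme mouse of both, with an FPKM of 1.89 for Flg and of 6164.86 for Krtdap. Medians of skeletal muscle (-0.04, 12 genes), adipocyte (-0.04, 10 genes) and sebaceous gland genes (-0.31, 10 genes) were at or below 0 with all mice. Without TBX20fl/fl;K14-Cre replicate 2 they were 0.08, 0.05 and -0.18, and without TBX20fl/fl replicate 2 they were 0.03, 0.02 and -0.06, and without both they were 0.17, 0.08 and 0.08. Their genes with the lowest unadjusted p were Pvalb (-0.76), Adrb3 (0.55) and Retn (-1.04), and Scd3 (1.14), Fabp5 (-0.84) and Dgat2l6 (-0.99). The 12 neutrophil genes had a mean log2 CPM of 2.64 to 3.62 in TBX20fl/fl;K14-Cre and of 3.64 to 4.69 in TBX20fl/fl mice, with 11 lower and a median of -1.32, among them Stfa2l1 (-1.93), one of several near-identical stefin genes, and Clec4d (-1.76). Removing the length trend also brought Id2 to -0.46, Hr to 0.14, Axin2 to 0.28, Lgals3 to -0.28, Crabp1 to -0.35 and Cd2 to -0.45. It brought Fabp5 to -0.27, Dgat2l6 to -0.64, Pvalb to -0.21, Retn to -0.37, Stfa2l1 to -1.05, Mki67 to 0.55 and Cenpf to 0.60, with no direction turned. No gene of these lists was at 0 in all mice, and the part of these cell types in the levels of the 10 follicle genes was not tested.

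**Figure D3:**
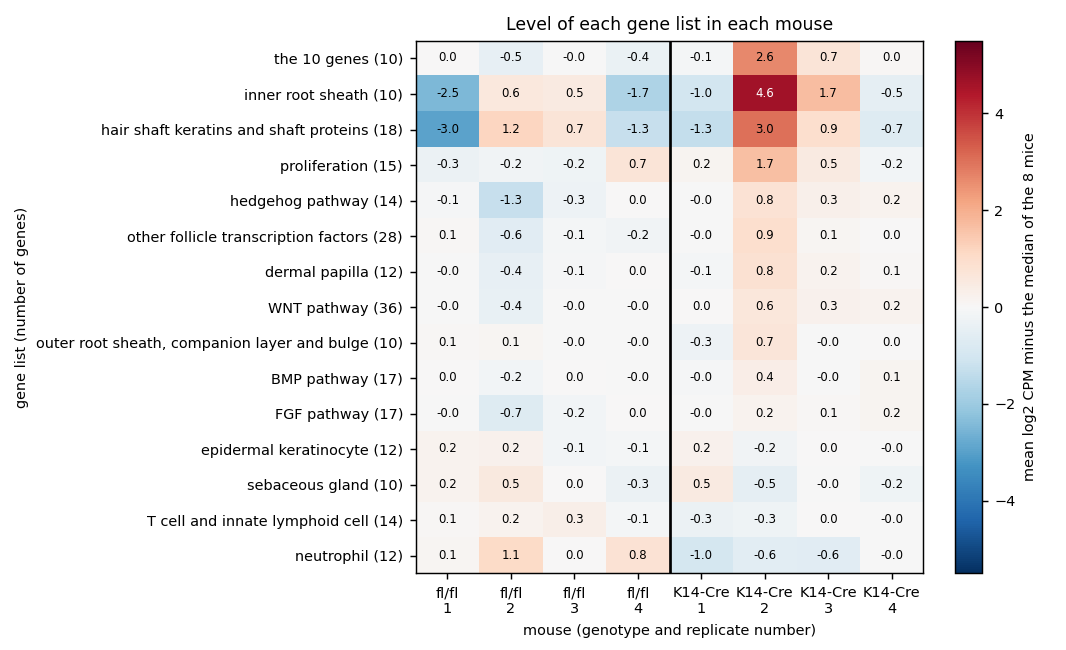
Mean log2 CPM of 15 gene lists (rows, number of genes in brackets) in each of the 8 mice (columns, fl/fl for TBX20fl/fl and K14-Cre for TBX20fl/fl;K14-Cre), as the difference from the list's median over the 8 mice. TBX20fl/fl;K14-Cre replicate 2 is highest in the top 11 rows, from the 10 follicle genes to the FGF pathway, and TBX20fl/fl replicate 2 is lowest in the 10 follicle genes and in the hedgehog, other transcription factor, dermal papilla, WNT, BMP and FGF lists.

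How closely the follicle genes moved with these layers was described over the 8 mice, which share their libraries and of which 1 or 2 are far from the rest, so that no p is given for any of the 30 relations computed. With the inner root sheath list, Pearson's r was 0.901 for Msx2 (Spearman's rho 0.690), 0.879 for Hoxc13 (0.667), 0.875 for Fgf5 (0.643), 0.843 for Dlx3 (0.452) and 0.833 for Lef1 (0.548), and 0.133 for Gata3 (0.190). Leaving out the 2 mice farthest from the list's median, TBX20fl/fl replicate 1 and TBX20fl/fl;K14-Cre replicate 2, r was 0.922 for Msx2, 0.939 for Hoxc13, 0.844 for Fgf5, 0.548 for Dlx3, 0.568 for Lef1 and -0.160 for Gata3. It went from 0.794 to 0.155 for Foxn1, from 0.776 to 0.161 for Wnt10b, from 0.715 to 0.248 for Shh and from 0.718 to 0.253 for Ovol1. The median r over the 10 genes was then 0.400. With TBX20fl/fl;K14-Cre replicate 2 alone left out, r was 0.752 for Msx2, 0.612 for Hoxc13, 0.589 for Fgf5, 0.440 for Dlx3, 0.489 for Lef1 and -0.274 for Gata3. It was 0.340 for Foxn1, 0.291 for Wnt10b, -0.001 for Shh and -0.052 for Ovol1. The median r over the 10 genes was 0.813 for the inner root sheath, 0.640 for the shaft and 0.780 for proliferation, and without that mouse 0.390, 0.144 and 0.078. For proliferation the 2 mice farthest from the list's median were that mouse and TBX20fl/fl replicate 4, and with both left out the median r was 0.544, from 0.240 for Hoxc13 to 0.793 for Dlx3, so its value depends on both mice.

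**Figure D4:**
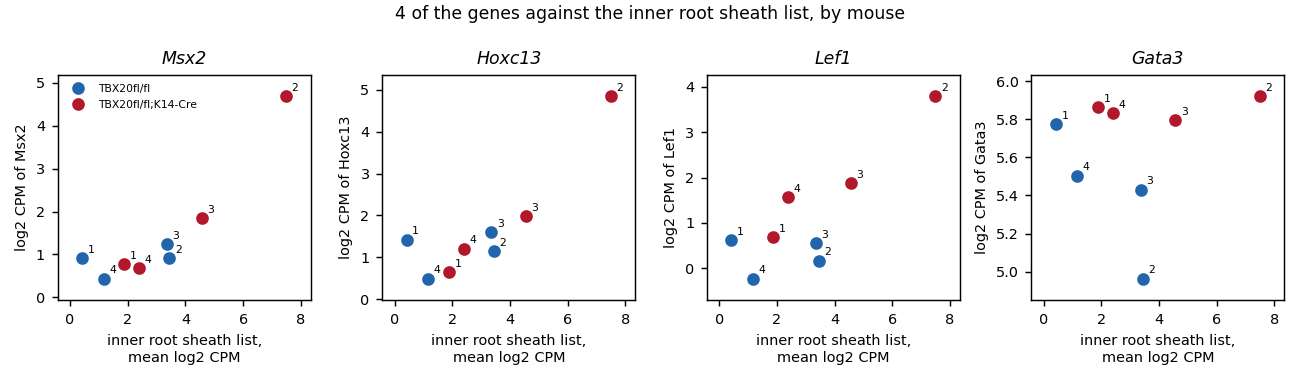
Log2 CPM of Msx2, Hoxc13, Lef1 and Gata3 (vertical axes) against the mean log2 CPM of the 10 inner root sheath genes (horizontal axes) in the 8 mice, with TBX20fl/fl in blue and TBX20fl/fl;K14-Cre in red and replicate numbers beside the points. Msx2 and Hoxc13 are highest in the mouse with the highest list level and second highest in TBX20fl/fl;K14-Cre replicate 3, while Gata3, also highest in that mouse, has TBX20fl/fl;K14-Cre replicate 1 second.

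Among themselves the 10 genes had a median r of 0.895 over 45 pairs (0.345 to 0.987), and of 0.599 without TBX20fl/fl;K14-Cre replicate 2. The closest were Msx2 with Hoxc13 and Msx2 with Fgf5 (r = 0.987 for both, and 0.887 and 0.934 without that mouse), and the loosest was Gata3 with Fgf5 (0.345 and 0.049). Among the 13290 genes whose counts averaged 50 or more, the genes most like Msx2 were Lepr (r = 0.993), Krt28 (0.986) and Sytl2 (0.979), those most like Hoxc13 were Krt75 (0.983), Wif1 (0.981) and Zdhhc15 (0.980), and those most like Fgf5 were Eya2 (0.988), the melanocyte gene Pmel (0.984) and Sytl2 (0.974). Dlx3 was closest to Golga7b (0.987), Rab15 (0.986) and Slc16a7 (0.986), and Shh to Large2 (0.978), Smarcd2 (0.976) and Rab15 (0.971). Lef1 was closest to the collagen gene Col11a1 (0.974), Kif26b (0.974) and Stum (0.964), Foxn1 to Epha3 (0.990), Txndc5 (0.987) and Gnb1l (0.983), and Wnt10b to Alcam (0.982), Pm20d1 (0.974) and Dclk3 (0.963). Ovol1 was closest to Proser2 (0.979), Slc39a6 (0.976) and Fancc (0.976). Gata3 had another set, Mapkap1 (0.994), Frem2 (0.994) and Egr3 (0.992), whose r without TBX20fl/fl;K14-Cre replicate 2 was 0.996, 0.994 and 0.992. Without that mouse the r of the genes named for the other follicle genes ran from 0.810 (Msx2 with Sytl2) to 0.959 (Foxn1 with Epha3). The extreme mouse of Gata3 was TBX20fl/fl replicate 2, and no r of these genes without it was computed.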

How the data were processed

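The authors filtered single-end 50-base reads with SOAPnuke (quality limit 15, at most a fraction of 0.2 of low-quality and 0.05 of unknown bases), aligned them with HISAT to GRCm38 and deposited 1 table with estimated counts (expected counts, not normalized, 69.0% of those above 0 not whole) and FPKM values made by the authors with the Dr. Tom platform. The counting program and the strandedness were not given in the sources used here. The 16 columns of TPM and scaled counts, 40 group means and 51 columns of log2 fold changes, p-values and q-values of 17 comparisons were not used.

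Counts were rounded, genes whose counts summed to 10 or more kept, and genotypes compared with TMM normalization and edgeR 4.0.16 quasi-likelihood tests (R 4.3.3), with Benjamini-Hochberg adjustment over all genes. SE is the absolute log2 fold change over the root of F. FPKM was compared by two-sided exact permutation over 70 assignments (Python 3.11.15, scipy 1.17.1). Log2 CPM used a prior count of 2. DESeq2 1.42.0, limma 3.58.1 (pseudocounts 1 and 0.1), a length trend fitted on genes averaging 50 or more counts, a follicle keratin covariate, and leaving out mice were alternatives. Deviations from the group means correlated between the mice of the same number with r = 0.323, 0.275, 0.176 and 0.108, and between the other pairs with r = -0.407 to 0.320. As every same-numbered pair was above 0.1, the numbers, which come from the labels, were used as a block in an alternative. TBX20fl/fl;K14-Cre replicate 4 with TBX20fl/fl replicate 1 (0.320), 2 with 3 (0.139) and 3 with 4 (0.136) were above 0.1 too. This limit therefore does not set the same-numbered pairs apart. Which litter or day a number stands for was not given. Scripts were tested on simulated counts.

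The 10 genes and the lists were chosen with earlier results of these data known. Named beside them were, per list, the 2 genes with the lowest unadjusted p under 0.05 in each direction, Tbx20, Gli1, Ptch1, Axin2, Hr, Lhx2, Sox9, Krt35 and Krt71, and, per gene, the 3 most alike; Krt85 was not analysed here, and 1 gene named by this rule is not reported here. Floors and counting limits cover counting error only.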

Additional observations from a re-analysis of the deposited data

Results flagged for a closer look

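In each of 52 groups of 4 values, FPKM of the 10 genes and mean log2 CPM of the lists by genotype, the gap between the extreme mouse and its neighbour was divided by the range. It exceeded Dixon's critical value for 4 samples in 9 groups, where chance gives 2.6. In 7 of the 9 the extreme was TBX20fl/fl;K14-Cre replicate 2, which was high, with ratios of 0.910 for Hoxc13 (12.8 FPKM), 0.922 for Shh (3.11), 0.918 for Msx2 (12.85), 0.894 for Dlx3 (32.05), 0.840 for Ovol1 (18.21), 0.903 for Fgf5 (1.57) and 0.876 for the other follicle transcription factors (mean log2 CPM 4.10). TBX20fl/fl replicate 2 was low in the WNT pathway list (0.984, mean log2 CPM 3.41), and TBX20fl/fl replicate 4 was high in the proliferation list (0.855, mean log2 CPM 4.07). These groups share mice and genes that move together, so the 9 are not independent. The 2.6 also rests on normally distributed values, while FPKM was taken on its linear scale and the lists on the log2 scale. Whether the genes pass the critical value on the log2 scale was not tested, so no excess over chance is read from the 9.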

How the results depend on the processing

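Over 208 alternative values of the 10 fold changes, 208 were higher in TBX20fl/fl;K14-Cre and 0 passed the adjusted threshold. Scaling by total count moved the median of all genes by 0.146 on the log2 scale and limma on log2(FPKM + 0.1) by 0.152. DESeq2 called 10 genes among all, and leaving out a mouse 0. Of the 10 follicle genes 8 had an unadjusted p under 0.05, all higher in TBX20fl/fl;K14-Cre (brackets give the share of all genes so called, 2.45% for the 8). The count was 5 with DESeq2 (3.13%), which gave no p for Hoxc13, Shh, Msx2 and Fgf5, 3 with limma on log2(FPKM + 1) with the filter (3.16%) and without it (3.05%), 4 with limma on log2(FPKM + 0.1) (2.5%), 1 with the follicle keratin covariate (6.19%), 2 with the replicate block (3.52%) and 2 with the block and the length trend removed (4.08%). With a mouse left out it was 2 to 8, with 2 without TBX20fl/fl;K14-Cre replicate 2 (1.41%), 4 without TBX20fl/fl replicate 1 (3.21%), 2 (3.19%) or 4 (3.69%), 3 without replicate 3 (1.43%), and 3 without both mice numbered 2 (4.16%), an alternative chosen after seeing the data.

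The difference in mean FPKM of Foxn1, Wnt10b, Dlx3 and Gata3 had exact p = 0.125, the smallest of 4 pairs, in a sign-flip test with the replicate block, at 1.23, 1.22, 8.73 and 5.91 FPKM, and with the block, as without it, no gene passed the adjusted threshold in edgeR. On log2 CPM the difference of Lef1 was 1.70 (exact p = 0.0286) and that of Wnt10b 0.68 (exact p = 0.0571), and with the length trend removed, chosen after seeing the data, 1.61 and 0.67 with the same p. With a mouse left out the differences in FPKM ranged from 0.464 to 1.62 in Foxn1, 0.538 to 1.78 in Lef1, 0.724 to 1.45 in Wnt10b, 2.08 to 11.3 in Dlx3 and 3.85 to 7.37 in Gata3.

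List medians moved as follows. Hair shaft, 1.29 in the main fit, was -0.47 to 1.57 over the alternatives with all mice and -0.34 to 1.91 over mice left out. Without TBX20fl/fl replicate 2 hedgehog was 0.35, WNT 0.26, FGF 0.20 and other follicle transcription factors 0.21, and with the length trend removed hedgehog was 0.32 and dermal papilla 0.09. WNT was 0.17 without both mice numbered 2 (0.17 to 0.51 over mice left out), BMP 0.30 and epidermal keratinocyte 0.17 with limma on log2(FPKM + 0.1), adipocyte 0.15 by total count and 0.16 with the length trend removed, neutrophil -0.64 with limma on log2(FPKM + 1), and inner root sheath 0.57 with the follicle keratin covariate and 0.77 to 3.60 over mice left out, lowest without TBX20fl/fl;K14-Cre replicate 2. The median r of the 10 genes over mice left out was 0.144 to 0.807 for the shaft, 0.390 to 0.899 for the inner root sheath and 0.078 to 0.918 for proliferation, each lowest without TBX20fl/fl;K14-Cre replicate 2. Shh and Fgf5 were not tested under filterByExpr, edgeR's stricter filter. The causes of these shifts were not tested, and 4 mice per group and the low counts of Shh and Fgf5 limit what could be detected.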
